A study of Mus musculus with 15 samples.

Results

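H3K9 methylation machinery is the set of proteins that write, assist and read methylation of lysine 9 on histone H3. The 10 genes described here were picked by symbol from a deposited table of 35976 genes. They are the writers Setdb1, Ehmt1, Ehmt2, Suv39h1 and Suv39h2, the cofactors Trim28 and Atf7ip, and the readers Cbx1, Cbx3 and Cbx5. All 10 were found in the table, and all 10 passed the filter on low counts in every comparison. The family was proposed because Setdb1 was high after cocaine abstinence in these same libraries, so that the values of that contrast are given below as a description, without a test.

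Methylated lysine 9 marks silent chromatin. SETDB1 is brought to retroelements and imprinted genes by KRAB zinc finger proteins and their corepressor TRIM28, while ATF7IP keeps it stable in the nucleus. EHMT2 (G9a) and EHMT1 (GLP) form a dimer that adds the lower methylation states in euchromatin, SUV39H1 and SUV39H2 act at pericentric heterochromatin, and the HP1 proteins made from Cbx1, Cbx3 and Cbx5 bind the methylated tail. In the brain this machinery is known for silencing retroelements and non-neuronal genes, and G9a has been studied in the reward circuit after repeated cocaine.

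RNA was sequenced from sorted nuclei of the ventral tegmental area of male heterozygous DAT-Cre mice (B6.SJL-Slc6a3tm1.1(cre)Bkmm/J), 8 to 12 weeks old, in which Cre is made by cells that use the dopamine transporter promoter. All mice of all groups carried Cre and received AAV5-DIO-KASH-HA, a Cre-dependent virus that tags the nuclear envelope, 14 days before behaviour began. HA-positive nuclei are called dopaminergic (DA) and HA-negative nuclei non-dopaminergic (nDA), and each library came from the pooled tissue of 2 mice. Dopaminergic nuclei were taken after the last of 7 days of lever training for food (n = 4), after the last cocaine maintenance session (n = 3), or after 21 days of enforced home-cage abstinence (n = 4). Non-dopaminergic nuclei were taken after food training only (n = 4). Mice worked 1 hour a day for intravenous cocaine, first 5 days with infusions of 0.3 mg/kg and then 10 days with infusions of 1.0 mg/kg, so that the abstinent mice had the same 15 days of cocaine as the maintenance mice before abstinence began.

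Total counts per library ranged from 25813697 to 59046618. The genes with any count numbered 14841 to 18372 in food-trained dopaminergic libraries, 15805 to 17204 at maintenance, 17444 to 19750 at abstinence and 22733 to 23886 in non-dopaminergic libraries. The 4 dopamine neuron markers Slc6a3, Th, Slc18a2 and Ddc, each higher in dopaminergic nuclei, summed to between 4184 and 8856 CPM (counts per 1000000) in the 11 dopaminergic libraries and between 257.6 and 400.2 CPM in the 4 non-dopaminergic ones. Library sizes were adjusted for CPM by trimmed-mean (TMM) factors over the 15 libraries. The slope of log2 CPM per percent of transcript GC was lowest in 4 libraries, at -0.0376 to -0.0224 for the 3 of maintenance and -0.0248 for non-dopaminergic replicate 2. No gap parted these from the others, which ran from -0.0167, in food-trained dopaminergic replicate 2, to 0.0322.

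Setdb1 was the member that differed most between the sorted populations and the one highest after abstinence relative to food training. In food-trained mice it stood 4.56-fold lower in dopaminergic than in non-dopaminergic nuclei, and it was the only 1 of the 10 members past the threshold by edgeR's quasi-likelihood test (Benjamini-Hochberg adjusted p under 0.05 over all genes). Of all 19786 genes tested there, 12.8% passed, 9.17% as lower and 3.63% as higher in dopaminergic nuclei, so that 1 of 10 is near the background of that fit. With the replicate block, which pairs the populations, 775 genes (3.92%) passed with the balance turned (413 higher, 362 lower), and Setdb1 was again the 1 member. Between maintenance and food training 0 of 10 members passed, where 0.131% of 19060 genes did. At abstinence Setdb1 lay above all 7 dopaminergic libraries of the earlier stages in 4 of 4 libraries, and in 1 of them within the range of the non-dopaminergic nuclei. Atf7ip, whose protein stabilises SETDB1, was the other member whose abstinence libraries all lay above those earlier ones, with its lowest at 165.3 CPM and the highest earlier one at 162.2 CPM. Of all 19060 genes 0.593% met that criterion, from which nothing is read, since the family was proposed from Setdb1 in these libraries.

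Setdb1 (chr3:95323525-95357202, minus strand, GRCm38) encodes a histone methyltransferase with a SET domain interrupted by an insertion. The food-trained dopaminergic libraries 1 to 4 held 11.04, 8.20, 10.99 and 14.8 CPM. The 3 maintenance libraries held 16.8, 23.1 and 10.9 CPM. The abstinence libraries 1 to 4 held 29.3, 36.7, 36.8 and 62.4 CPM. The order of the stages is thus the same in lows and highs, but food training and maintenance overlap, since maintenance replicate 3 lies within the food-trained range, while abstinence overlaps neither. The non-dopaminergic libraries held 46.8, 50.8, 62.8 and 46.6 CPM, all above every food-trained and maintenance dopaminergic library, and abstinence replicate 4 lies within their range.

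Against non-dopaminergic nuclei, Setdb1 fell by 2.19 on the log2 scale in food-trained dopaminergic nuclei (SE 0.27, n = 4 and 4, adjusted p = 0.00439 by edgeR), lower in 4 of 4 libraries. The same food-trained dopaminergic libraries enter the contrast for which the family was proposed, so this test is not independent of that choice. With the replicate block the adjusted p of Setdb1 was 0.0228, and over the 16 alternatives it ranged from 3.29e-14 to 0.0249, with log2 fold changes between -2.35 and -2.06. With a term for the 4 libraries of lowest GC slope the difference was -2.17. In sorted bulk nuclei, fewer cells of a type that expresses a gene and less RNA per cell cannot be told apart.

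Glial marker sums differed in the same contrast. Lower in dopaminergic nuclei were 4 of 5 oligodendrocyte markers (summed level 1620 to 2547 against 8433 to 21568 CPM), 2 of 5 astrocyte markers (374.4 to 731.9 against 1085 to 2553 CPM) and 4 of 5 microglia markers (475.6 to 710.4 against 1220 to 2394 CPM), with none of these 15 genes at 0 in any library. Of the astrocyte markers 2 of 5 had log2 fold changes above 0, with Aldh1l1 at 47.1 against 33.1 CPM on average. Of the 3 neuron markers 1 passed as higher and 1 as lower, with log2 fold changes from -1.18 to 1.45. The part of these markers in the Setdb1 difference was not tested. Setdb1 also shares 75 exon bases, 1.09% of its exon union, with the 3′ end of Cers2 on the opposite strand, a ceramide synthase gene. Cers2 averaged 46.1 ± 12.2 CPM in the food-trained dopaminergic libraries and 251.9 ± 61.5 CPM in the non-dopaminergic ones (SD, n = 4 each). Whether the authors' counting used strand is not given in the sources used here, and the part of reads from Cers2 was not tested. The locus Gm37500 overlaps 249 exon bases (3.63%) on the opposite strand and is not a row of the count table used here. A predicted locus, Gm4349, matches 295 bases of Setdb1 at 99.7% identity and held between 0 and 5.08 CPM in the 15 libraries.

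Maintenance against food training was tested in a fit of the 11 dopaminergic libraries. Setdb1 differed by 0.59 on the log2 scale (SE 0.43, n = 3 and 4, adjusted p = 0.712 by edgeR), with 16.9 ± 6.09 against 11.3 ± 2.71 CPM, and without maintenance replicate 2 the value was 0.26. Its food-trained libraries also enter the contrast from which the family was proposed, so this test is not independent of that choice. The 3 maintenance libraries have the lowest GC slopes of the dopaminergic ones, so that stage and slope cannot be told apart within them. With a term for the 4 libraries of lowest slope, which rests on non-dopaminergic replicate 2 alone, the difference was 0.61. Among these 4 libraries, the maintenance libraries lay at 10.9 to 23.1 CPM and non-dopaminergic replicate 2 at 50.8 CPM.

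At abstinence Setdb1 stood at 41.3 ± 14.5 CPM (SD, n = 4), 1.87 on the log2 scale above food training (SE 0.41) and 1.28 above maintenance (SE 0.45). These 2 comparisons share the abstinence libraries, and the first is the one from which the family was proposed. Over the 20 alternatives the first difference ranged from 1.59 to 2.02 and the second from 1.00 to 1.61, and abstinence replicate 4 gave the lower end of both when left out. By edgeR 0 of 19060 genes passed between abstinence and food training (0%), with 819 (4.3%) at an unadjusted p under 0.05 and 145 (0.78%) past the threshold by DESeq2. Nothing is read from this about the members.

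Glial marker sums at abstinence overlapped those after food training. The summed oligodendrocyte markers lay between 1009 and 1887 CPM. Against food training 5 of 5 of their log2 fold changes were below 0, 1 with an unadjusted p under 0.05 by edgeR. Astrocyte markers summed to 380.9 to 535.2 CPM and microglia markers to 438.5 to 825.0 CPM, with 374.4 to 731.9 and 475.6 to 710.4 CPM after food training. Dopamine neuron markers summed to 4184 to 6675 CPM at abstinence against 4689 to 8856 CPM after food training, with 4 of 4 log2 fold changes below 0 (median -0.26, 1 with an unadjusted p under 0.05). At maintenance the oligodendrocyte sums, 966 to 1615 CPM, overlapped those of abstinence and lay below every food-trained library. Against maintenance 4 of 5 oligodendrocyte markers had log2 fold changes above 0 at abstinence (median 0.64, 2 with an unadjusted p under 0.05) and 3 of 3 neuron markers below 0 (median -0.48). Of the 4 dopamine neuron markers 3 were below 0 against maintenance (median -0.53), 1 of them without overlap and 1 with an unadjusted p under 0.05. Microglia markers were above 0 there in 3 of 5 (median 0.37, 2 with an unadjusted p under 0.05). Astrocyte markers were above 0 in 2 of 5 (median -0.11, 1 with an unadjusted p under 0.05 and 1 lower without overlap). None of these markers passed the threshold by edgeR, and their part in the Setdb1 difference was not tested. Cers2 held 93.6, 88.9, 58.9 and 41.0 CPM in abstinence libraries 1 to 4, of which 1 to 3 lay above every food-trained library (highest 57.9 CPM), and its mean was 70.6 ± 25.0 CPM against 46.1 ± 12.2 CPM. The part of Cers2 reads in the abstinence values of Setdb1 was not tested. The median number of genes detected was 18982.5 at abstinence and 16312.5 after food training, with overlapping ranges. The part of detection in the Setdb1 values was not tested.

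**Figure D1:**
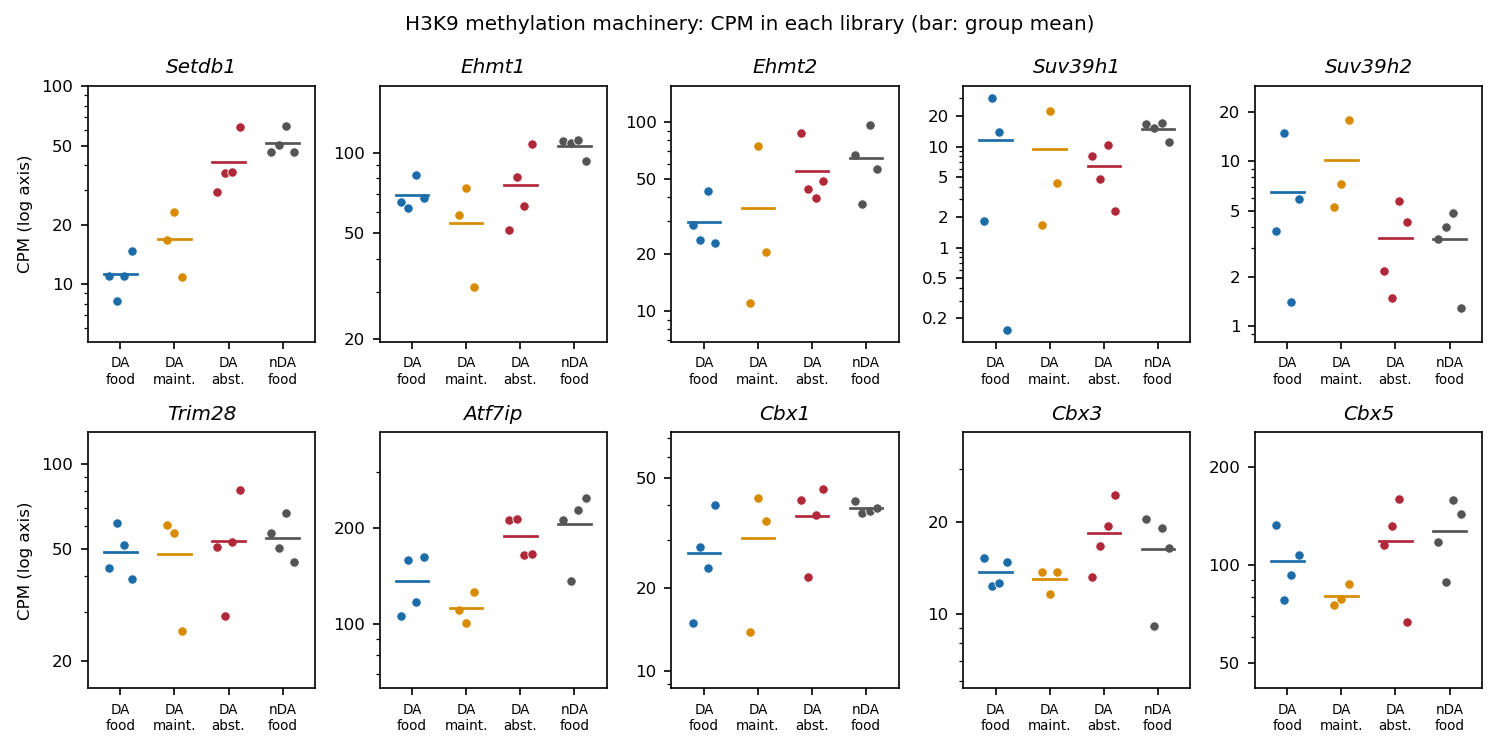
CPM of each of the 10 members (log axis) in every library, with DA nuclei after food training, maintenance and abstinence and nDA nuclei after food training; points are libraries and bars are group means. Setdb1 lies at 8.20 to 14.8 CPM after food training, 29.3 to 62.4 CPM at abstinence and 46.6 to 62.8 CPM in nDA nuclei, while Ehmt2, Trim28, Cbx1 and Cbx3 overlap between all groups.

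**Figure D2:**
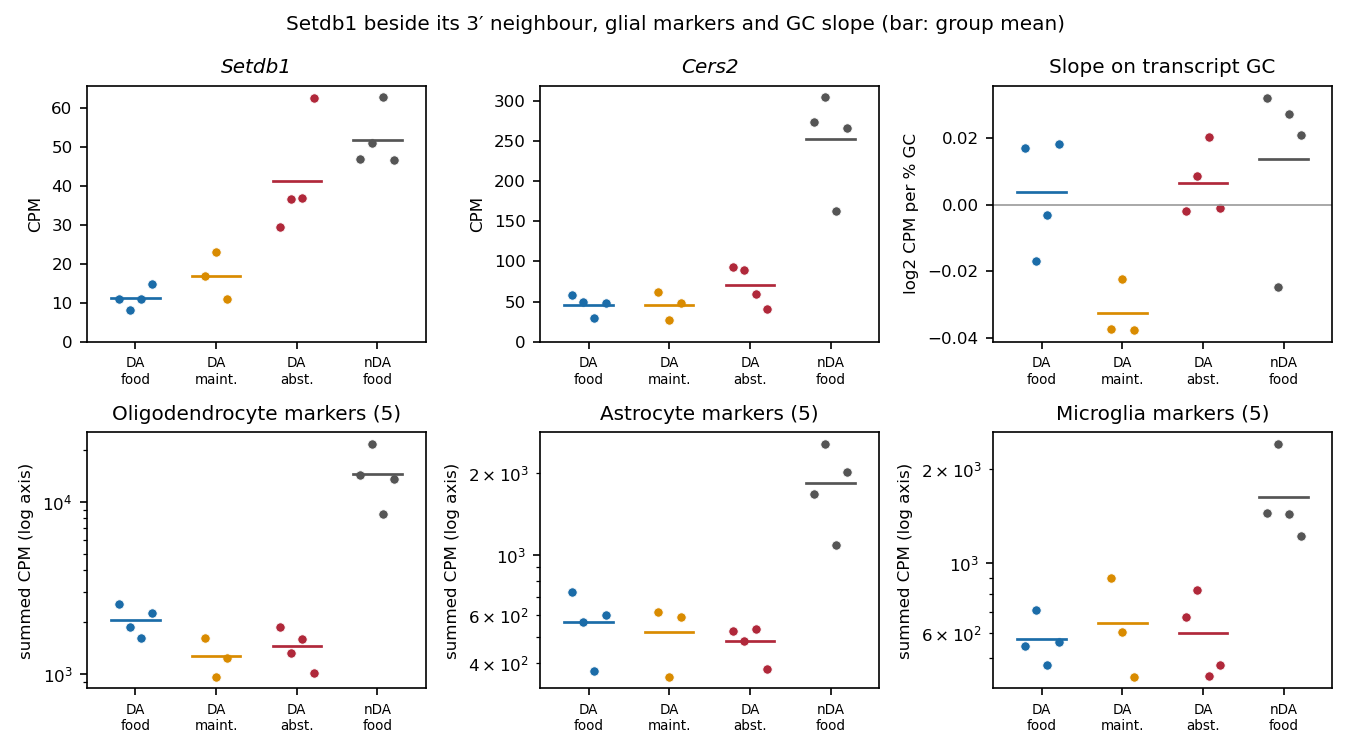
Setdb1 CPM beside Cers2 CPM, the GC slope of each library (log2 CPM per percent GC) and the summed CPM of 5 oligodendrocyte, 5 astrocyte and 5 microglia markers (log axes); points are libraries and bars are group means. The glial sums are highest in nDA nuclei and overlap between abstinence and food training, and the maintenance libraries lie lowest in GC slope with nDA replicate 2.

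The promoters of Setdb1 and Atf7ip are shown because these are the members whose abstinence libraries lay above all earlier libraries. Each sequence is the 250 bases before the start site in RefSeq (GRCm38.p6), read 5′ to 3′ on the gene's strand, at chr3:95357203-95357452 (minus strand) and chr6:136518601-136518850 (plus strand), with the matched motifs in capitals.
Setdb1: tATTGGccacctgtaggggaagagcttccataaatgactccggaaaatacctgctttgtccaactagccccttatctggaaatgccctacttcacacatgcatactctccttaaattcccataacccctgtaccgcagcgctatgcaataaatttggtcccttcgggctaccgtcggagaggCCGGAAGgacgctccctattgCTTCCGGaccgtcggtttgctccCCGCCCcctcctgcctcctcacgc
Atf7ip: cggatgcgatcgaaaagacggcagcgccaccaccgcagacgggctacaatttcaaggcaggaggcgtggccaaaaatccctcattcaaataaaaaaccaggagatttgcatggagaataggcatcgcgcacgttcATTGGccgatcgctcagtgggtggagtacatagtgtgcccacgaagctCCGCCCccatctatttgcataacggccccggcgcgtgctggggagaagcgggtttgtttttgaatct
Motifs were searched on both strands. The GC box was GGGCGG, the E-box was CACGTG and the Ets core was CCGGAAG. The cyclic AMP response element was TGACGTCA and its shorter core, which lies inside it, was TGACG. The AP-1 site was TGANTCA. The CCAAT box, spelled by its name, and the Nrf1 site were searched too. Both promoters held 1 GC box and 1 CCAAT box, found in 32.7% and 33.9% of 32851 such windows. Setdb1 held 2 Ets cores, starting 68 and 47 bases before the start site on opposite strands, where 6.91% of windows held at least 1, and Atf7ip held none. GC content was 54.4% with 13 CpG in Setdb1 and 54.8% with 20 CpG in Atf7ip, against medians of 52.4% and 6 over all windows. Of the 14 windows that RefSeq gives for the 10 members, these are the only ones of Setdb1 and Atf7ip, and the Setdb1 window is the one with an Ets core.

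Ehmt1 (chr2:24789928-24919614, minus strand) encodes GLP, the partner that G9a needs for full activity. The food-trained dopaminergic libraries held 65.4, 62.0, 82.7 and 67.9 CPM and the non-dopaminergic libraries 110.1, 108.2, 111.0 and 92.7 CPM. The groups did not overlap, with a log2 fold change of -0.59 (SE 0.17) that missed the threshold (edgeR adjusted p = 0.0514). It passed with DESeq2 (adjusted p 0.0102) and without food-trained dopaminergic replicate 3 (0.0229), and the adjusted p over the alternatives reached 0.295. Maintenance libraries held 58.3, 73.6 and 31.3 CPM and abstinence libraries 51.4, 80.7, 63.3 and 107.9 CPM, both overlapping food training, with log2 fold changes of -0.36 (SE 0.34) at maintenance and 0.12 (SE 0.31) at abstinence against food training. With a library left out the maintenance value ran from -0.68, without maintenance replicate 2, to -0.072, without maintenance replicate 3, and the abstinence value turned to -0.11 without abstinence replicate 4.

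Ehmt2 (chr17:34898469-34914052, plus strand) encodes G9a. Its food-trained dopaminergic libraries held 28.4, 23.7, 43.3 and 22.8 CPM and the non-dopaminergic libraries 66.8, 36.7, 97.1 and 56.3 CPM. Non-dopaminergic replicate 2 fell within the dopaminergic range, and the log2 fold change of -1.11 (SE 0.34, adjusted p = 0.0714 by edgeR) missed the threshold. It passed with DESeq2 (adjusted p 0.0299), with a GC offset (0.0401), without dopaminergic replicate 3 (0.0274) and without non-dopaminergic replicate 2 (0.0336), and the adjusted p over the alternatives reached 0.234. Maintenance libraries spread from 10.998 to 74.4 CPM, the widest relative spread of Ehmt2 in any group (coefficient of variation 96.8%), and without maintenance replicate 2 the log2 difference from food training turned from 0.26 to -0.95. Abstinence libraries held 87.2, 44.4, 39.5 and 48.7 CPM, of which 3 lay above all food-trained libraries, at 0.89 on the log2 scale above food training (SE 0.52).

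Suv39h1 (chrX:8061171-8074760, minus strand) and Suv39h2 (chr2:3455815-3475031, minus strand) encode the methyltransferases of constitutive heterochromatin. Suv39h1 held 1.85, 30.5, 13.9 and 0.153 CPM in food-trained dopaminergic libraries, or 107, 1071, 384 and 7 counts. It held 1.69, 22.5 and 4.38 CPM at maintenance and 8.10, 4.74, 10.4 and 2.30 CPM at abstinence. The 4 non-dopaminergic libraries were far closer together, at 16.8, 15.3, 17.0 and 11.1 CPM, and lay inside the food-trained dopaminergic range (log2 fold change -0.36, SE 1.13, adjusted p = 0.894 by edgeR). The coefficient of variation was 120.8% in food-trained dopaminergic and 18.2% in non-dopaminergic nuclei.

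Suv39h2 held 3.78, 15.0, 1.41 and 5.93 CPM after food training, 5.29, 7.25 and 17.9 CPM at maintenance and 2.15, 1.47, 5.78 and 4.26 CPM at abstinence. Non-dopaminergic libraries held 3.39, 4.02, 4.85 and 1.28 CPM and overlapped all dopaminergic groups but maintenance. Suv39h2 was the only member with a positive log2 fold change in dopaminergic against non-dopaminergic nuclei (0.96, SE 0.87, adjusted p = 0.588 by edgeR). With a library left out its value ran from 0.14, without dopaminergic replicate 2, to 1.32, and without dopaminergic replicate 4 Suv39h1 was above 0 too, at 0.049. The exon models of both genes overlap genes on the opposite strand, Suv39h1 over 767 bases with Gm14820 and Suv39h2 over 357 bases with Dclre1c, so that their counts are uncertain where strand was not used.

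Trim28 (chr7:12999114-13031035, plus strand) encodes KAP1, the corepressor that links KRAB zinc finger proteins to SETDB1. It held 42.7, 61.7, 51.8 and 39.0 CPM after food training, 60.6, 57.1 and 25.7 CPM at maintenance, 50.7, 28.8, 53.0 and 80.6 CPM at abstinence and 57.0, 50.4, 67.0 and 45.1 CPM in non-dopaminergic nuclei. All groups overlapped, and no log2 fold change was further from 0 than 0.16 (the smallest SE was 0.23). The recruiting partner of SETDB1 was thus measured at similar means, between 47.8 and 54.9 CPM, in groups whose Setdb1 means ran from 11.3 to 51.7 CPM.

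Atf7ip (chr6:136506167-136610862, plus strand) encodes the partner that protects SETDB1 from degradation. It held 106.2, 159.3, 117.5 and 162.2 CPM after food training, 111.0, 101.1 and 126.3 CPM at maintenance, 212.3, 213.3, 165.3 and 165.9 CPM at abstinence and 211.5, 136.3, 227.5 and 248.6 CPM in non-dopaminergic nuclei. Between abstinence and maintenance the log2 difference was 0.74 (SE 0.24, n = 4 and 3, adjusted p = 0.342 by edgeR), past the threshold with DESeq2 (adjusted p 0.0450), and the adjusted p over the 20 alternatives reached 1.00. With the term for the libraries of lowest GC slope, which rests on non-dopaminergic replicate 2 alone (136.3 CPM), it was 0.01. Abstinence stood 0.46 above food training (SE 0.22) and dopaminergic 0.58 below non-dopaminergic nuclei, as a log2 fold change of -0.58 (SE 0.24, adjusted p = 0.169 by edgeR).

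Cbx1 (chr11:96789127-96808640, plus strand), Cbx3 (chr6:51470360-51483704, plus strand) and Cbx5 (chr15:103191544-103239816, minus strand) encode HP1 beta, HP1 gamma and HP1 alpha, which bind methylated H3K9 and compact chromatin. Cbx1 held 14.9, 28.1, 23.7 and 40.2 CPM after food training, 13.9, 42.3 and 35.1 CPM at maintenance and 41.7, 22.0, 36.8 and 45.9 CPM at abstinence. Non-dopaminergic libraries held 37.6 to 41.4 CPM, the tightest group of any member (coefficient of variation 4.25%) and overlapped the top of the food-trained dopaminergic range.

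Cbx3 held 15.3, 12.4, 12.7 and 14.7 CPM after food training, 13.7, 11.6 and 13.8 CPM at maintenance and 13.2, 16.7, 19.4 and 24.7 CPM at abstinence, where 3 of 4 libraries lay above all 7 earlier ones. Non-dopaminergic libraries held 20.5, 9.10, 19.1 and 16.5 CPM and overlapped every dopaminergic group. Cbx5 held 132.2, 78.0, 92.9 and 107.4 CPM after food training, 75.2, 78.5 and 87.6 CPM at maintenance, 114.9, 131.8, 159.2 and 67.0 CPM at abstinence and 117.8, 88.6, 158.5 and 143.6 CPM in non-dopaminergic nuclei. Abstinence replicate 4, the highest dopaminergic library for Setdb1, Ehmt1, Trim28, Cbx1 and Cbx3, was the lowest for Cbx5. No reader passed the threshold in any tested comparison, with a smallest edgeR adjusted p of 0.352 between the populations, 0.776 between maintenance and food training and 0.580 between abstinence and maintenance.

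As a family, 9 of 10 members had negative log2 fold changes in dopaminergic against non-dopaminergic nuclei, with a median of -0.45, where the median of all genes was -0.21 and 41.7% of genes were positive. Of the 10 members, 2 did not overlap between the populations (Setdb1 and Ehmt1, both lower), where 19.7% of all genes were lower without overlap. By DESeq2 3 members passed (Setdb1, Ehmt1 and Ehmt2), where 20.5% of 18950 genes did, and by edgeR 4 had an unadjusted p under 0.05, as did 24.3% of genes. Between maintenance and food training the median was -0.06 against -0.01 for all genes, 0 members had an unadjusted p under 0.05 (11.6% of genes did), 0 passed by DESeq2 (5.33% of genes did), and 0 of 10 were without overlap (8.45% of genes).

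At abstinence 8 of 10 members were above 0 against food training, with a median of 0.31 where all genes had 0.04, the negative ones being Suv39h1 (-0.88, SE 1.21) and Suv39h2 (-0.94, SE 0.94). Without food-trained replicate 2 the value of Suv39h1 turned to 0.25, and with a library left out that of Suv39h2 ran from -1.31 to -0.13. Setdb1 and Atf7ip were the 2 without overlap, where 2.4% of genes were higher without overlap. Since the family was proposed from Setdb1 in this contrast, nothing is read from these counts and medians. Against maintenance 8 of 10 were again above 0, where 52.8% of all genes were. This comparison shares its abstinence libraries with the first, and its median was 0.49 against 0.05 for all genes. With the GC slope term, which rests on non-dopaminergic replicate 2 alone, Ehmt2 (-0.36), Cbx3 (-0.51) and Cbx5 (-0.090) turned below 0. In the main fit 0 of 10 members passed against maintenance by edgeR (0.178% of genes did). An unadjusted p under 0.05 was found for 2 of 10, Setdb1, which is given as a description, and Atf7ip, where 9.92% of genes had one. By DESeq2 1 member, Atf7ip, passed, where 4.26% of 18597 genes did. The same 2 members were without overlap against maintenance, where 7.68% of genes were higher without overlap.

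**Figure D3:**
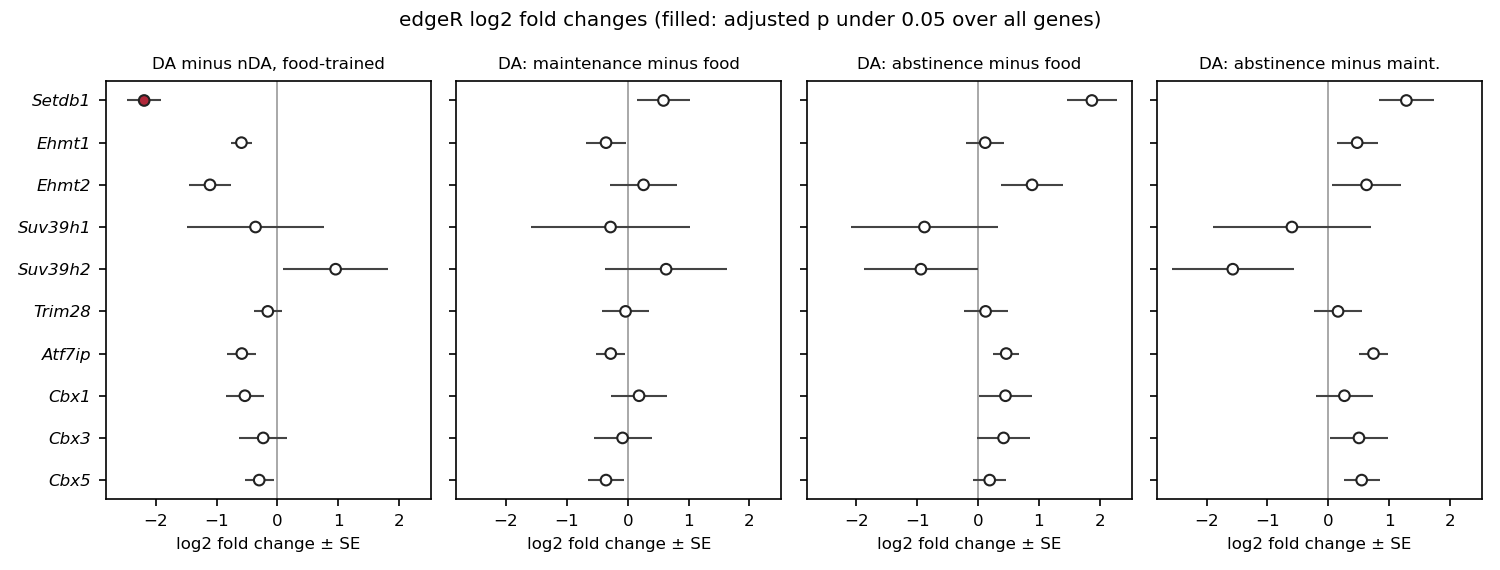
Log2 fold change with its standard error for each member in the 4 comparisons, from edgeR; a filled point has an adjusted p under 0.05 over all genes. Setdb1 in DA against nDA nuclei, at -2.19, is the filled point, and the widest error bars belong to Suv39h1.

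Levels were compared between members per kb of exon union. After food training Trim28 (11.7 ± 2.44 CPM per kb, SD, n = 4) and Cbx5 (11.4 ± 2.56) were highest in dopaminergic nuclei, and Suv39h1 (2.20 ± 2.66), Setdb1 (1.64 ± 0.39) and Suv39h2 (1.48 ± 1.34) lowest. Setdb1 thus had rank 9 of 10 in food-trained dopaminergic nuclei. It had rank 7 in non-dopaminergic nuclei (7.55 ± 1.11), at abstinence (6.03 ± 2.12) and at maintenance (2.47 ± 0.89, n = 3). At abstinence and in non-dopaminergic nuclei Setdb1 overlapped Cbx1 above it and lay apart from the member below it. Of 9 neighbouring pairs in the order, 8 overlapped after food training, 8 at maintenance, 7 at abstinence and 7 among non-dopaminergic libraries. With the longest transcript as length, Setdb1 had rank 9 at maintenance, as after food training, and rank 7 in the other 2 groups. Atf7ip moved from rank 4 to rank 1 in food-trained dopaminergic nuclei, since its exon union is 20726 bases and its longest transcript 8059 bases.

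**Figure D4:**
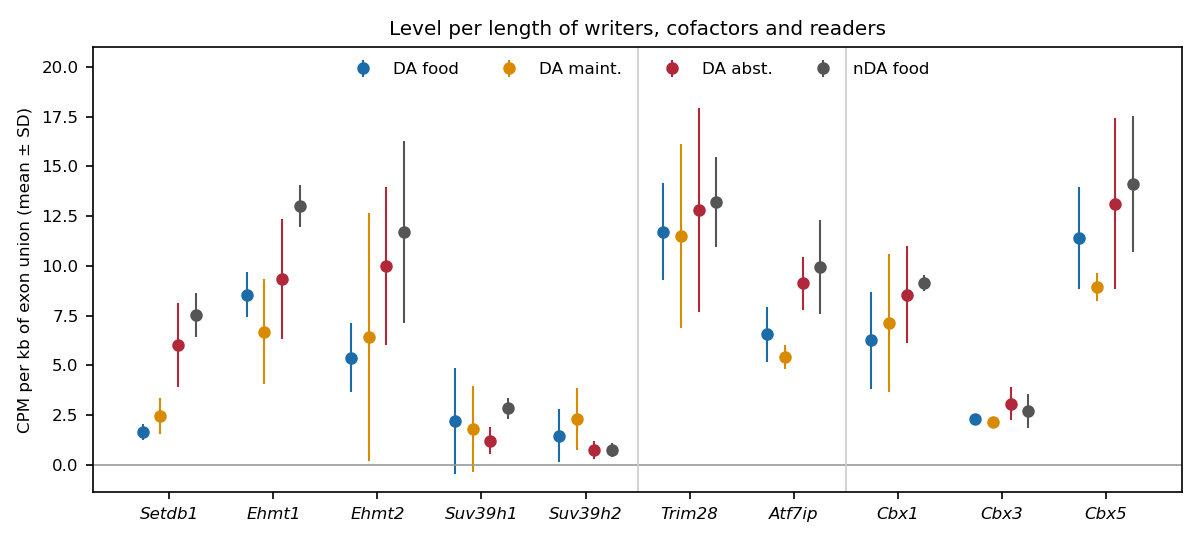
Mean CPM per kb of exon union with its SD (lower bars of Suv39h1 pass below 0 because its libraries spread widely) for writers, cofactors and readers, left to right, in the 4 groups. Setdb1 lies at 1.64 after food training and 6.03 at abstinence, while Trim28 lies between 11.5 and 13.2 in all groups.

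Over the 11 dopaminergic libraries, which share depth, GC slope and stage effects, 29 of 45 pairs of members had a positive Pearson r of log2 CPM, with a median of 0.13. For Setdb1 the highest were Cbx3 (0.73), Ehmt2 (0.52) and Atf7ip (0.51), and the lowest was Suv39h2 (-0.38). These values include the abstinence and food-trained levels of Setdb1 from which the family was proposed, so they are a description. Ehmt1 and Ehmt2, whose proteins form a dimer, had an r of 0.35.

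Among 15120 genes with a mean of at least 20 counts, the 5 most like Setdb1 over the 11 dopaminergic libraries were Clic3 (r 0.88), a chloride intracellular channel gene, Erf (0.88), an Ets-family repressor gene, Mettl5 (0.87), an RNA methyltransferase gene, Heg1 (0.87), a membrane protein gene, and Srrt (0.87), an RNA processing gene. Clic3 had 0 counts in all 7 libraries of the earlier stages and 18 to 110 counts at abstinence, and Erf had 0 in 6 of those 7, so that both reached the minimum of 20 through their abstinence libraries. The likeness of all 5 includes the abstinence values from which the family was proposed and is a description. Srrt averaged 20.8 CPM after food training, 57.7 in non-dopaminergic nuclei, 36.6 at maintenance and 66.9 at abstinence. Heg1, unlike Setdb1, was far higher in non-dopaminergic nuclei (27.6 to 60.0 CPM) than at abstinence (5.54 to 10.96 CPM).

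A list of 30 further genes of the pathway held other writers, partners of G9a and GLP, the HUSH complex that works with SETDB1, KRAB-linked factors, heterochromatin proteins, H3K9 demethylases and Grin2b, a receptor subunit gene known as a SETDB1 target in neurons. Between the populations 2 of 29 tested were lower in dopaminergic nuclei and 0 higher by edgeR (9.17% and 3.63% of all genes), with a median log2 fold change of -0.28. Mecom, a PRDM-family writer, had 0 counts in all 4 food-trained dopaminergic libraries and 0.333 to 1.25 CPM in non-dopaminergic ones, at least 11.5-fold lower against a floor of 3 counts per library. It passed the filter on low counts through the non-dopaminergic libraries alone, so its place among the 2 is a description, and its call held in 13 of 16 alternatives, being lost with the replicate block, with all 15 libraries in 1 fit and with the GC slope term. Kdm3a, an H3K9 demethylase, held 13.9, 33.6, 43.9 and 25.4 CPM against 64.7, 76.4, 70.5 and 61.5 CPM without overlap, which is -1.21 on the log2 scale (SE 0.33, adjusted p = 0.0444 by edgeR). Its call was lost with the replicate block (0.0759) and held in 4 of 16 alternatives, over which the adjusted p ran from 0.0118 to 0.134.

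The genes lower without overlap between the populations were 5 of 29, where 19.7% of all genes were. Beside Mecom and Kdm3a these were Cdyl, Atrx and Kdm3b, of which Cdyl and Kdm3b are named after their values were seen. Cdyl held 144, 0, 0 and 65 counts in the dopaminergic libraries and 243 to 320 in the non-dopaminergic ones. Like Mecom, it passed the filter on low counts through the non-dopaminergic libraries, so the places of both among the 5 are a description. Atrx, a chromatin remodeller of heterochromatin, averaged 231.8 ± 76.4 CPM in the dopaminergic and 357.9 ± 64.0 CPM in the non-dopaminergic libraries (log2 fold change -0.61, SE 0.28, adjusted p = 0.217 by edgeR). Of the HUSH complex and its partners, Tasor (listed as Fam208a, 0.27, SE 0.29) and Mphosph8 (0.15, SE 0.21) had log2 fold changes above 0, and Pphln1 (-0.04, SE 0.43) and Morc2a (-0.66, SE 0.69), both named after their values were seen, below 0. Lbr, an HP1-binding receptor of the nuclear envelope, had 0.19 (SE 0.34), and the KRAB zinc finger genes Zfp57 and Zfp809 had -0.32 (SE 0.41) and -0.24 (SE 0.52).

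Between stages 0 of 28 tested genes of that list passed by edgeR at maintenance against food training, where 0.131% of all genes did, and 2 had an unadjusted p under 0.05 (11.6% of all genes). At abstinence against maintenance 0 of 28 passed (0.178% of all genes), and 2 had an unadjusted p under 0.05 (9.92%). Kdm1a, a demethylase of H3K4 and H3K9 named after its values were seen, was the 1 gene of the list higher without overlap at maintenance, at 42.7 against 16.1 CPM on average (log2 fold change 1.40, SE 0.43, adjusted p = 0.278 by edgeR), where 4.31% of all genes were. At abstinence against food training the list had a median of -0.03 with 13 of 28 above 0, where all genes had 0.04. Mphosph8 stood at 66.7 ± 16.9 against 106.5 ± 23.5 CPM at abstinence and maintenance (log2 fold change -0.68, SE 0.29, adjusted p = 0.491 by edgeR), while Tasor had 0.10 (SE 0.42). Pphln1 (1.05, SE 0.49, adjusted p = 0.510 by edgeR), the 1 gene of the list higher without overlap there (7.68% of all genes), and Morc2a (1.03, SE 0.78) were above 0, and the median of the 4 HUSH genes was 0.56. Zfp644 and Wiz, which recruit G9a and GLP, had -0.24 (SE 0.37) and 0.68 (SE 0.66). Grin2b averaged 185.0, 183.3, 176.5 and 201.7 CPM in food-trained, maintenance, abstinence and non-dopaminergic libraries, with no log2 fold change beyond 0.11 from 0.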

How the data were processed

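Nuclear RNA was measured in 15 libraries, grouped by sample title. Table columns carry the sample descriptions as names. The authors deposited whole-number counts per gene. The submitters' processing notes name Trim Galore 0.6.7, cutadapt 1.18, STAR 2.7.10a, StringTie 2.1.5, DESeq2 1.38.3 and the build mm10 (GRCm38), and the gene annotation and use of strand are not given in the sources used here. A second deposited table, named as normalized, held the same counts (0 cells differed in 10 columns) and was not used. The members and lists were chosen with earlier results of these data known.

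Counts were analysed with edgeR 4.0.16 in R 4.3.3 (filterByExpr, TMM factors, quasi-likelihood F-test, Benjamini-Hochberg adjustment over all genes, threshold 0.05). The populations were compared in a fit of 8 libraries and the stages as contrasts in a fit of 11. DESeq2 1.42.0, other scalings, no filter, a replicate block, other library sets, a term for 4 libraries of lowest GC slope, a GC offset and each replicate left out were alternatives. Replicates are pools of 2 mice, and the labels do not say whether pools share a cohort, so p-values measure the spread between pools. Counts carry no molecular identifiers, so depth alone does not give their counting precision. The replicate numbers shared by the populations were checked for pairing: deviations of same-numbered libraries correlated at 0.116 to 0.262 in all 4 pairs. Each dopaminergic library correlated best with its own number, while non-dopaminergic replicate 1 correlated better with dopaminergic replicate 4 (0.146). Since every pair was over 0.1, the numbers were taken to pair the samples there, and the blocked fit called 775 genes (413 higher, 362 lower) against 2534. Values given for the populations come from the fit without the block unless an alternative is named, so their p-values leave out the pairing.

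Positions, lengths and GC came from GENCODE M21, which matched 26763 symbols directly and 559 by a synonym and left 8654 without a value. Loci of at least 200 aligned bases at 95% identity or more counted as near-identical copies. Log2 CPM used a prior count of 2, GC slopes came from 8353 genes with a mean log2 CPM over 4, and a gene at 0 in a group was set to a floor of 3 counts per library. The genes named are the 10 members, list genes past the threshold or otherwise the 2 most abundant of a list, and the 5 most like Setdb1 that are not predicted genes or clones. The fits were tested on simulated data.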

Additional observations from a re-analysis of the deposited data

Results flagged for a closer look

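Among the 30 combinations of a member with a group of 4 libraries, 1 held a library far from the others by Dixon's criterion for 4 values, which chance gives in about 1 in 20 groups. Ehmt1 in non-dopaminergic nuclei stood at 92.7 CPM in replicate 4, with the nearest other library at 108.2 CPM, a gap of 0.848 of the group's range. Replicate 4 remained above the 4 food-trained dopaminergic libraries, of which the highest was 82.7 CPM. Without it the log2 fold change of Ehmt1 between the populations was -0.65 (edgeR adjusted p 0.0722, and 0.0102 to 0.295 over the alternatives).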

How the results depend on the processing

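Of the members, Setdb1 between the populations stayed past the threshold in 16 of 16 alternatives, and the replicate block changed no member's call there. The members called were 3 by DESeq2, 2 with the GC offset and 1 to 3 with a library left out (3 without food-trained dopaminergic replicate 3, 2 without non-dopaminergic replicate 2). Genes called between the populations numbered 2534, against 3883 by DESeq2, 775 with the replicate block, 965 with a term for the 4 libraries of lowest GC slope, and 1900 to 3740 with a library left out. Between maintenance and food training the count of 25 became 992 by DESeq2, 0 with the replicate block or the GC slope term, 1 with these groups alone, 12 with the GC offset and 5 to 78 with a library left out (78 without maintenance replicate 2). Between abstinence and food training the count of 0 became 145 by DESeq2 and stayed at 0 with each library left out. Between abstinence and maintenance the count of 34 became 792 by DESeq2 (with 1 member, Atf7ip), 22 with upper quartile scaling or the 2 groups alone, 15 with all libraries in 1 fit, 14 with the GC offset, 2 with the replicate block, 1 with the GC slope term and 6 to 73 with a library left out.

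Signs of members turned in these cases, none of the tested ones past the threshold, and the cause was not tested. For maintenance against food training, Ehmt2 became -0.051 and Cbx3 0.00404 with the replicate block. With the GC slope term, which rests on non-dopaminergic replicate 2 alone, Trim28 became 0.11, Atf7ip 0.45, Cbx3 0.93 and Cbx5 0.28. Trim28 became 0.50 with the GC offset. Leaving out a library gave -0.16 to 0.54 for Cbx1, -1.98 to 0.83 for Suv39h1, -0.23 to 0.27 for Trim28, -0.95 to 0.70 for Ehmt2 and -0.055 to 1.43 for Suv39h2. For abstinence against maintenance, Suv39h1 became 1.42 with the replicate block. Ehmt2 became -0.36, Cbx3 -0.51 and Cbx5 -0.090 with the GC slope term, and Trim28 -0.45 with the GC offset. For abstinence against food training, given without a test, Suv39h1 became 0.96 with the replicate block and 0.25 without food-trained replicate 2, and without abstinence replicate 4 Ehmt1 became -0.11 and Trim28 -0.16. For abstinence against maintenance, leaving out a library gave -0.089 to 0.61 for Cbx1, -1.11 to 1.10 for Suv39h1 and -0.15 to 0.37 for Trim28. Between the populations Suv39h1 spanned -1.50 to 0.049 with a library left out. The replicate numbers of the stages did not pair samples (correlations from -0.351 to 0.110, 1 of 10 over 0.1), so the block there is a shared number only. Suv39h1 had as few as 7 counts in 1 library and Suv39h2 as few as 39, and the cause of their spread between libraries was not tested.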
